A study of Mus musculus with 4 samples.

Results

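The genes described here are those of Wnt signalling, with its ligands, receptors, antagonists, intracellular components and Wisp genes, in NIH3T3 cells that carried 1 of 2 forms of EGFR. They were taken by gene name from the array's design (names such as Wnt5a, Fzd4, Sfrp2, Dkk2, Lgr6 or Lef1), which gave 62 genes with 79 probes, out of 34821 gene names or unnamed probes and 55681 probes in all. NIH3T3 is an immortalised line of mouse embryonic fibroblasts. In the labels 2 arrays are of cells with wild-type EGFR, the receptor tyrosine kinase for epidermal growth factor, and 2 are of cells with a deletion mutant of it, all at steady state and with no treatment. Both groups therefore carry an EGFR construct, and arrays of cells without one were not used here. The labels name neither the deleted stretch, nor the promoter or species of the construct, nor the number of clones. Separate cDNA syntheses are mentioned but not separate cultures, so the spread behind every p-value may be a technical one. A single slide held the 4 arrays, 1 column of it per group, and column and receptor cannot be told apart.

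Wnt proteins are secreted lipid-modified ligands that bind Frizzled receptors. With the co-receptors Lrp5 and Lrp6 they stop the Axin-based destruction complex from degrading beta-catenin (Ctnnb1), which then activates genes together with Lef1 and the Tcf factors, whereas other Wnts, of which Wnt5a is the best known, act through Ror receptors and without beta-catenin. Sfrp, Dkk and Wif1 proteins are secreted antagonists. R-spondins bind Lgr4, Lgr5 and Lgr6 and keep the ubiquitin ligases Rnf43 and Znrf3 from removing Frizzled from the cell surface.

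The values rest on 60-base probes of which the first 30 bases, 5′ to 3′ as deposited, are shown for the genes that changed most and for Fzd7 and Lef1, where a pair of probes read 1 gene. No base is marked with capitals. The probes lie, in mm9, at chr14:29336664-29336723 for Wnt5a, chr15:98602209-98602268 for Wnt10b, chr3:83577864-83577923 for Sfrp2 and chr2:163658717-163658776 for Wisp2, with Wnt10b on the minus strand and the others on the plus strand. Those of Lgr6 lie on the minus strand at chr1:136880538-136880597 (brighter) and chr1:136883782-136883841 (dimmer). Those of Fzd7 are at chr1:59543192-59543251 (brighter) and chr1:59541367-59541426 (dimmer), and those of Lef1 at chr3:130926200-130926259 (brighter) and across a junction at chr3:130907851-130926012 (dimmer), all on the plus strand. Which of them are coding was not analysed here.
Wnt5a: cctaacccagaggttaccagcctggttttg
Wnt10b: gggtgggaatggataatttattttactgag
Sfrp2: tcggcatctaagtcttcaaacatttcgttg
Wisp2: gtatttgtaaaaatacacatctcttaaatg
Lgr6, brighter: gtctctgttctacatatttggatctgacaa
Lgr6, dimmer: tggagaagagctcctgcgactccacccaag
Fzd7, brighter: aagggaaggtgaacttcaaagtgattctgg
Fzd7, dimmer: agccccgactttacagtcttcatgatcaag
Lef1, brighter: actgcaagcgccgacttccaaaaagaaagc
Lef1, dimmer: gtacaggtcccagaatgacagctgcctaca

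On these 1-colour arrays between 42.9% and 46.9% of probes were well above background, none was saturated, and the signal's 75th percentile ranged from 327 to 366.6 intensity units. All 10 fibroblast markers, among them Col1a1, Vim and Pdgfra, were well above background on all 4 arrays. Their summed level, in units of each array's 75th percentile, was 2095 and 2166 in wild-type and 1276 and 1319 in deletion-mutant arrays. Vim was 1.17-fold higher in deletion-mutant cells (limma adjusted p = 0.0448), and every other one was lower, by 1.63-fold (Fn1) to 2.39-fold (Col5a1). Of 7 epithelial markers 1, Krt14, was well above background on all arrays and was 1.33-fold lower in deletion-mutant cells (limma adjusted p = 0.00551). Krt8 was well above it on the deletion-mutant arrays only, through which it was tested (at least 2.79-fold higher, adjusted p = 0.00961). Another 4, including Cdh1 and Epcam, were so on no array. The summed level of the 7 was 0.391 to 0.484 in wild-type and 0.645 to 0.654 in deletion-mutant arrays. Of 4 leukocyte markers Ptprc was well above background on no array while Itgam, Cd68 and Cd3e were on all, and the sum was 35.03 to 37.5 and 19.98 to 20.1. Itgam, by far the brightest, was 1.89-fold lower (limma adjusted p = 0.00109), while Cd68 and Cd3e did not pass (0.359 and 0.225). For endothelium (Cdh5, Tek and Vwf on no array) the sum was 6.57 to 7.13 and 6.61 to 6.74. For adipocytes (Adipoq and Plin1 on no array, Fabp4 on the wild-type arrays only) it was 0.271 to 0.298 and 0.0859 to 0.106. For bone and cartilage (3 of 4 on no array) it was 0.228 to 0.242 and 0.135 to 0.240. The part of these markers in the results below was not tested, and fewer cells of a type cannot be told apart from less RNA per cell.

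The comparison asked which Wnt pathway transcripts differ with the form of the receptor. The ligand Wnt5a, the R-spondin receptor Lgr6, the transcription factor Lef1 and the antagonists Dkk2 and Apcdd1 were higher in deletion-mutant cells by at least 2-fold. The antagonist Sfrp2, the growth regulator Wisp2, the ligand Wnt10b, the receptors Fzd1 and Fzd4 and the co-receptor Lrp6 were lower by at least as much. A gene was tested when a probe of it was well above background on each array of either group or both, and 30 of 62 (48.4%) qualified, against 52.0% of all gene names and unnamed probes. Of the 30, 27 were measured above background on all 4 arrays, and 3 (Lgr6, Wisp2 and Wnt10b) entered through the group where they were high. By limma at an adjusted p of 0.05, 11 of the 30 rose, or 36.7%, beside 34.6% of all 18093 features tested. Another 12 fell, or 40.0%, beside 24.2% of all features, and 7 did not pass. When only features well above background on all arrays were fitted, 10 of 27 members rose and 10 fell. Over all 16572 such features 6341 rose and 3908 fell. At least 2-fold changes were 5 upward (16.7%, beside 5.94% of all features) and 6 downward (20.0%, beside 7.46%). Lgr6 is counted among the former, and Wisp2 and Wnt10b among the latter, through signals at background in 1 group. The median log2 fold change of the tested genes was 0.02, and 0.07 over all features, while the median of its size without sign was 0.63 and 0.37. These are counts of genes picked by name and not a test that the pathway stands apart.

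The split between rises and falls moved with the scaling of the arrays. It was 11 and 12 under the 75th percentile of all probes, 6 and 14 under that of the probes detected on all arrays, 9 and 12 under quantile normalization, 11 and 10 under spike-in scaling and 13 and 10 under median scaling. The split over all 18093 features was, in the same order, 6260 and 4371, 4276 and 6727, 5287 and 5069, 7234 and 3749, and 8696 and 3140. With no background filter, which adds the 32 dim genes, 6 members rose and 12 fell, beside 3741 and 2725 of 34816 features. Of these 12 falls 2, of Rnf43 and Rspo2, were of dim genes (adjusted p = 0.0155 and 0.0162). Without wild-type replicate 1, with the lone wild-type array assumed to vary like the other group, 7 rose and 10 fell. The 11 genes changed at least 2-fold kept their direction and stayed past the threshold under every alternative in which they were tested. Under normexp background correction the log2 fold change was 3.27 for Lgr6, -1.74 for Wisp2, -0.58 for Wnt10b and 0.57 for Apcdd1. For Lgr6, Wisp2 and Wnt10b these changes are smaller in size than the bounds given below, which were taken under the main setting.

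**Figure D1:**
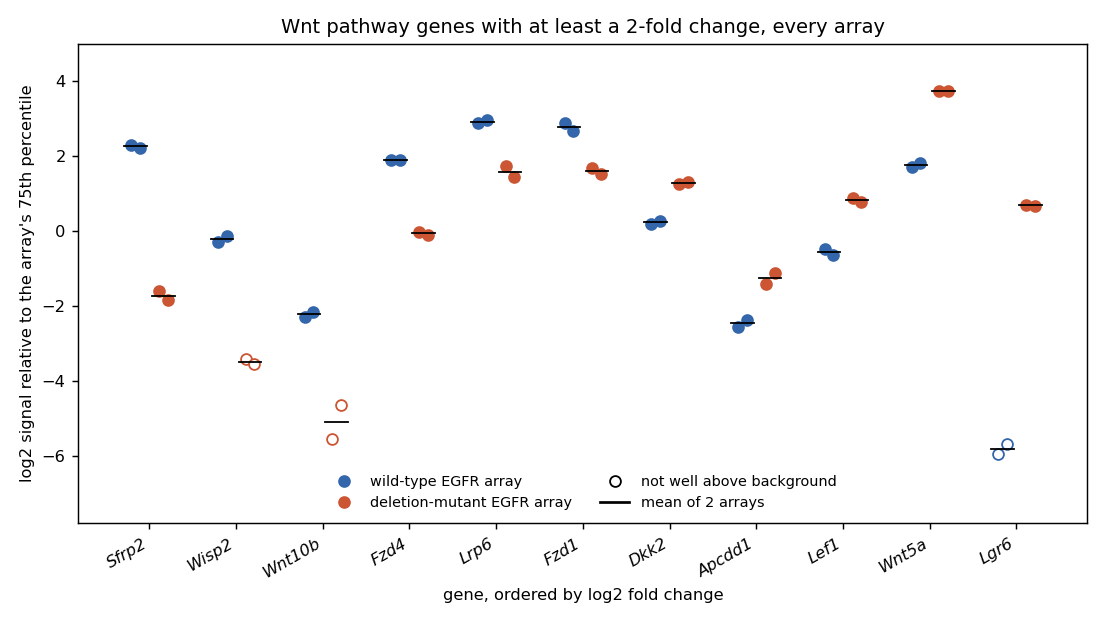
Log2 signal relative to each array's 75th percentile for the 11 Wnt pathway genes with a change of at least 2-fold, each point 1 array (blue wild type, red deletion mutant, open where not well above background) and each bar the mean of 2 arrays. Groups that do not overlap were a condition for drawing a gene, and all 11 met it. The share of all features with such groups was not counted. The genes run from Sfrp2 with a log2 fold change of -3.98 to Lgr6, whose wild-type arrays were at background.

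Among the 19 Wnt ligands, 4 were tested. Wnt5a had log2 signals of 1.70 and 1.82 on the wild-type arrays and 3.74 and 3.74 on the deletion-mutant arrays, all relative to each array's 75th percentile. Both deletion-mutant values lay above both wild-type values, and the means, 1.76 ± 0.081 (SD, n = 2) and 3.74 ± 0.0026, differed by 3.94-fold (log2 fold change 1.98 ± 0.067 SE, limma adjusted p = 0.000301). Wnt10b, a ligand of the beta-catenin branch that restrains adipocyte formation, read -2.30 and -2.15 in wild-type and -5.56 and -4.63 in deletion-mutant arrays. The latter pair was not well above background, so only a bound can be given, and Wnt10b was at least 2.27-fold lower (adjusted p = 0.00322). A bound sets the mean of the bright group against the lowest signal that counts as well above background on each dim array, or the probe's own signal where that is higher. Bounds were taken under the main setting only and do not hold under normexp background correction for Lgr6, Wisp2 and Wnt10b. The adjusted p beside a bound comes from the fit to the signals at background and is not a test of the bound. Since such a gene was tested only through its bright group, that p is not separate evidence of a difference either.

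Wnt9a, another ligand, fell 1.59-fold (log2 fold change -0.67 ± 0.075 SE), from -0.24 and -0.36 to -0.93 and -1.02. Wnt1, the founding ligand of the family, had a log2 fold change of -0.07 with a 95% interval from -0.22 to 0.09 (adjusted p = 0.366), which turned to 0.11 under median scaling. Only 1 of its probes, at chr15:98624201-98624260, was above background, at 0.35, 0.30, 0.26 and 0.25 in the order of wild-type and deletion-mutant arrays. The other Wnt1 probe, at chr15:98623276-98623335, lay between -5.84 and -5.50 and was not well above background on any array, so the transcript is measured by 1 of 2 probes that disagree on its presence.

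The remaining 15 ligands were not tested. Wnt2, Wnt2b, Wnt3, Wnt3a, Wnt4, Wnt5b, Wnt6, Wnt7a, Wnt7b, Wnt8a, Wnt8b, Wnt9b, Wnt10a and Wnt11 were not well above background on any array. Wnt16 was well above it on 1 wild-type array.

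Of 10 Frizzled genes, which encode the seven-pass receptors of Wnt proteins, 8 were tested: 4 fell (50%, beside 24.2% of all features), 2 rose (25.0%, beside 34.6%) and 2 did not pass. Fzd4, also the receptor of Norrin, had 1.91 and 1.91 with the wild-type receptor and -0.01 and -0.10 with the deletion mutant. It fell 3.91-fold (log2 fold change -1.97 ± 0.062 SE, adjusted p = 0.000271). The drop is far wider than the gap between arrays of a group, whose SD was 0.0019 and 0.062. Fzd1 fell 2.27-fold, from 2.88 and 2.68 to 1.68 and 1.52 (-1.18 ± 0.101, adjusted p = 0.00162). Fzd2 fell 1.79-fold, from 4.33 and 4.35 to 3.47 and 3.54, and its second probe fell 2.01-fold. Fzd8, at -0.72 and -0.71 in wild-type arrays, fell by 0.27 (log2), to -0.96 and -0.995 (adjusted p = 0.017). That small difference did not pass under median scaling (adjusted p = 0.257) or without any 1 of the arrays (0.0535 to 0.0805), and over all alternatives its adjusted p ran from 0.00369 to 0.265.

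Fzd3, a receptor of the planar polarity branch, rose 1.31-fold, from -1.18 and -1.03 to -0.76 and -0.69 (adjusted p = 0.0156), but not without wild-type replicate 1 (0.0651) or deletion-mutant replicate 2 (0.0533), scaled on the detected probes (0.0859) or with no background filter (0.0944). Fzd5 (0.24, interval from -0.16 to 0.63) and Fzd6 (0.14, from -0.20 to 0.49) did not pass. Fzd5 passed without deletion-mutant replicate 2 (0.43, adjusted p = 0.0197) and under median scaling (0.42), while Fzd6 turned to -0.05 under the percentile of the detected probes. Fzd9 and Fzd10 were not well above background on any array.

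Fzd7 was the only one of the 7 members with several kept probes whose probes passed in opposite directions. Its brighter probe read -0.27 and -0.31 in wild-type and 0.07 and 0.09 in deletion-mutant arrays, which is 1.30-fold higher (0.38 ± 0.059 SE, adjusted p = 0.00858 with every probe as a feature). Its dimmer probe read -0.74 and -0.66 in wild-type and -1.55 and -1.53 in deletion-mutant arrays, which is 1.78-fold lower (-0.84 ± 0.063, adjusted p = 0.00164). Within each probe the groups did not overlap and the arrays of a group were close together. The rise of the brighter probe did not pass when scaled on the detected probes (0.0533) or with no background filter (0.0622). The direction for Fzd7 therefore depends on the probe, and the mean of both gave -0.23. The sequences of both are printed above, and the brighter one is 1 of the 2 rises counted among the Frizzled genes.

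**Figure D2:**
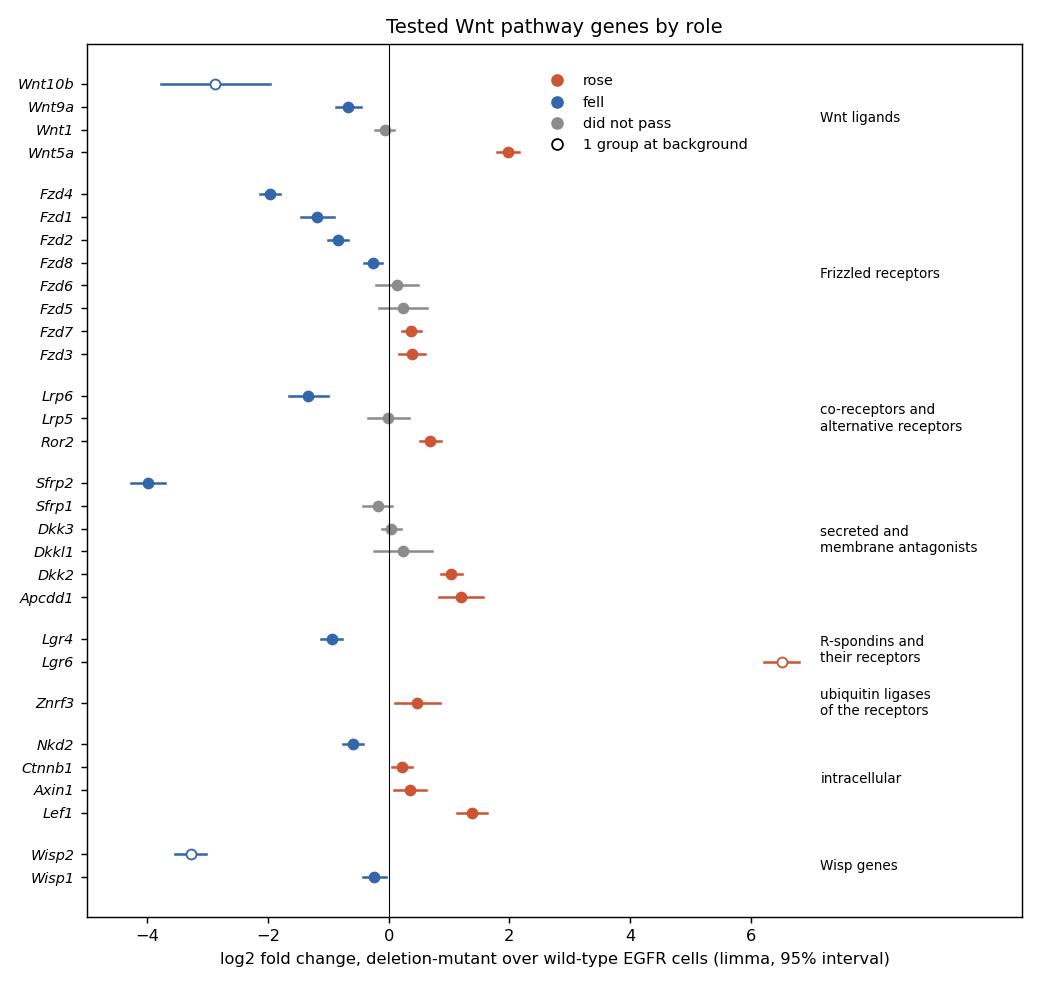
Log2 fold change of deletion-mutant over wild-type cells with its 95% limma interval for the 30 tested Wnt pathway genes, grouped by role. Colours show rises (red), falls (blue) and genes that did not pass (grey), and open points mark Wnt10b, Lgr6 and Wisp2, of which 1 group was at background and whose fold is not a measured one. The points run from -3.98 for Sfrp2 to 6.51 for Lgr6, and the other rises do not exceed 1.98.

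Of the co-receptors and alternative receptors, Lrp6 fell and Ror2 rose. Lrp6, which pairs with Frizzled in the beta-catenin branch, went from 2.88 and 2.96 to 1.73 and 1.45, a 2.51-fold fall (log2 fold change -1.33 ± 0.116 SE, adjusted p = 0.00171). Its second probe fell 1.87-fold, so both probes moved the same way. Lrp5, its close relative, had 1.72 and 1.49 in wild-type and 1.49 and 1.71 in deletion-mutant arrays. These overlap, and the difference of -0.01 had an interval from -0.34 to 0.33 (adjusted p = 0.968). Ror2, the receptor tyrosine kinase that binds Wnt5a, rose 1.61-fold, from 1.60 and 1.70 to 2.32 and 2.36 (0.69 ± 0.065, adjusted p = 0.002). Ror1 was not well above background on any array.

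Of 11 genes grouped by name as antagonists, 6 were tested. Of these 1 fell (16.7%, beside 24.2% of all features), 2 rose (33.3%, beside 34.6%) and 3 did not pass. Sfrp2, a secreted protein with a Frizzled-like domain that binds Wnts, had the largest fall among all tested members. It read 2.303 and 2.22 on wild-type and -1.60 and -1.84 on deletion-mutant arrays, well above background on all 4, which is 15.8-fold lower (log2 fold change -3.98 ± 0.105 SE, adjusted p = 0.000213). The gap between the groups was wider than the SD within them, 0.055 and 0.175. Sfrp1, of the same family, went from -1.89 and -2.003 to -2.21 and -2.05, a difference of -0.18 with an interval from -0.42 to 0.05 (adjusted p = 0.14). Under the percentile of the detected probes Sfrp1 passed, at -0.38.

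Dkk2, a ligand of Lrp6, rose 2.06-fold, from 0.19 and 0.28 to 1.25 and 1.31 (1.04 ± 0.065 SE, adjusted p = 0.000851). Apcdd1, a membrane-bound inhibitor of Wnt signalling, rose 2.297-fold, from -2.57 and -2.36 to -1.40 and -1.12 (1.20 ± 0.132, adjusted p = 0.00288). Both genes had every deletion-mutant array above every wild-type array. Dkk3, a divergent relative that does not act as a typical Dkk, had 2.97 and 2.97 in wild-type and 3.04 and 2.99 in deletion-mutant arrays. Its difference of 0.05 did not pass (interval from -0.11 to 0.20), and it turned to -0.15 under quantile normalization. Dkkl1, in this group by its name only, did not pass either, at 0.24 with an interval from -0.24 to 0.72. Dkk1, Dkk4, Sfrp4, Sfrp5 and Wif1 were not well above background on any array.

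Of the R-spondins and their receptors, only Lgr6 and Lgr4 were measured. Lgr6 had -5.95 and -5.69 on wild-type arrays, not well above background, and 0.70 and 0.68 on deletion-mutant arrays. It was tested through the deletion-mutant group, where it was at least 19.5-fold higher (adjusted p = 0.000146, from a fit that used the wild-type signals at background). The dimmer of its probes read -5.93 and -5.65 against -1.19 and -1.29, which is at least 5.12-fold higher, so both probes were at background in wild-type and above it in deletion-mutant cells. Lgr4 moved the other way, from -1.23 and -1.21 to -2.12 and -2.21, a 1.92-fold fall (-0.94 ± 0.062 SE, adjusted p = 0.000954). Lgr5, which marks stem cells of several epithelia, and the ligands Rspo1, Rspo2, Rspo3 and Rspo4 were not well above background on any array.

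Of the ubiquitin ligases that R-spondins hold back, Znrf3 rose 1.39-fold, from -2.42 and -2.54 to -1.84 and -2.18 (0.47 ± 0.136 SE, adjusted p = 0.0426), and Rnf43 was not well above background on any array. The call for Znrf3 lay close to the threshold and was lost without either wild-type array (adjusted p = 0.108 and 0.172) and without deletion-mutant replicate 1 (0.069).

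Inside the cell, 3 of 4 tested genes rose (75%, beside 34.6% of all features) and 1 fell (25.0%, beside 24.2%), and 2 of these rises, of Axin1 and Ctnnb1, were lost under several alternatives. Lef1, a factor through which beta-catenin reaches DNA, rose 2.61-fold, from -0.46 and -0.64 to 0.88 and 0.78 (1.38 ± 0.089 SE, adjusted p = 0.000915). Its second probe, which spans a junction, went from -2.10 and -2.33 to -0.89 and -0.43 and rose 2.94-fold. The direction was thus the same with either probe. Beta-catenin itself, Ctnnb1, rose 1.17-fold, from 4.18 and 4.11 to 4.35 and 4.39 (0.22 ± 0.062, adjusted p = 0.0374), and turned to -0.01 under quantile normalization. Axin1, the scaffold of the destruction complex, rose 1.28-fold, from 1.90 and 2.12 to 2.40 and 2.32 (adjusted p = 0.0355), and missed the threshold under quantile normalization (0.155). Without either deletion-mutant array, or without wild-type replicate 1, Axin1 did not pass (adjusted p between 0.0611 and 0.106), and Ctnnb1 did not pass without any 1 of the arrays (0.0801 to 0.149).

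Nkd2, which binds Dishevelled, fell 1.51-fold, from 1.78 and 1.74 to 1.14 and 1.20 (-0.59 ± 0.060 SE, adjusted p = 0.00236), by 1 of its 2 probes. The other, at chr13:73957581-73957640, was not well above background on any array. Axin2, a feedback inhibitor and a widely used target of beta-catenin, was well above background on 1 deletion-mutant array (-1.99, against -5.47 on the other array of that group), and its second probe on none. Nkd1 and Tcf7, also used as targets, were not well above background on any array.

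Wisp2 (now Ccn5) and Wisp1 (now Ccn4) encode matricellular proteins named for induction by Wnt1. Wisp2 had -0.28 and -0.12 in wild-type and -3.41 and -3.56 in deletion-mutant arrays, the latter not well above background. It was tested through the wild-type group and was at least 8.88-fold lower (adjusted p = 0.00024, from a fit that used the deletion-mutant signals at background). Wisp1 went from 2.93 and 3.04 to 2.77 and 2.73, a difference of -0.24 ± 0.069 SE (adjusted p = 0.0421). A second Wisp1 probe, at -0.17, did not pass (adjusted p = 0.0695). The groups did not overlap, yet the call was lost without any 1 of the arrays (adjusted p between 0.064 and 0.156) and under median scaling (0.469).

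**Figure D3:**
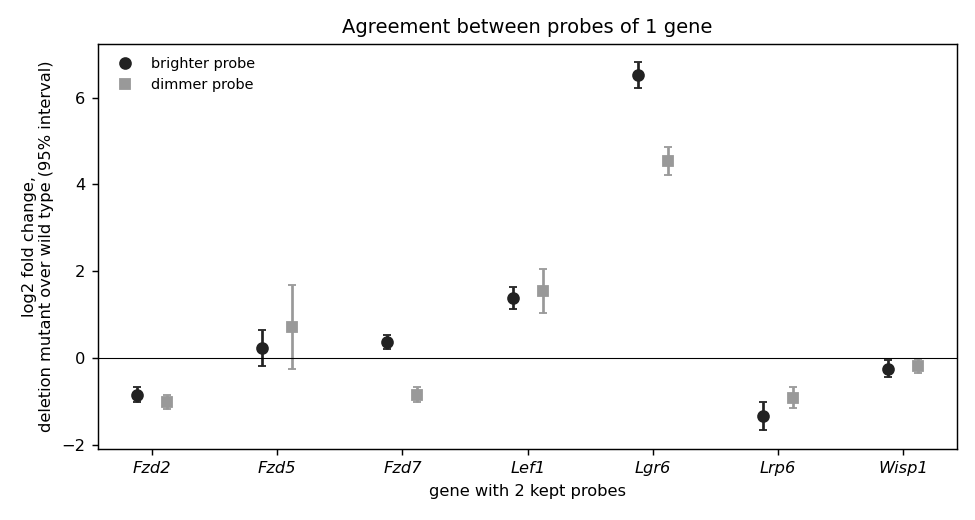
Log2 fold change with its 95% limma interval for both probes of the 7 Wnt pathway genes with 2 kept probes, the brighter as a black circle and the dimmer as a grey square, with every probe fitted as a feature. The probes lie on the same side of 0 for 6 genes and on opposite sides for Fzd7 (0.38 and -0.84). For Lgr6 the wild-type arrays were at background, so its points are not measured folds.

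The promoter windows of the genes with the largest changes in each direction, Lgr6 and Sfrp2, and of the tested members that hold a TCF/LEF match are shown next, as the 250 bases before a RefSeq start (GRCm38.p6). The motif searched was CTTTGAA or CTTTGAT, or their variants CTTTGTA and CTTTGTT, on both strands, the letters bound by Lef1 and its relatives, and a match is in capitals. Of the 30 tested genes 16 had a promoter in the RefSeq table, with 20 starts. A match was found at 2 of these 20 starts, that of Fzd7 and 1 of Lef1, beside 14.8% of all 32851 promoters. The difference between these shares was not tested. Neither the Lgr6 nor the Sfrp2 window holds these letters, which says nothing about the factor. The windows are chr1:135105277-135105526 (minus strand) for Lgr6, chr3:83766071-83766320 for Sfrp2, chr1:59481897-59482146 for Fzd7 and chr3:131156044-131156293 for Lef1 (plus strand). The match lies 130 bases before the start of Fzd7, whose probes disagreed, and 147 bases before this start of Lef1, which rose with both probes.
Lgr6: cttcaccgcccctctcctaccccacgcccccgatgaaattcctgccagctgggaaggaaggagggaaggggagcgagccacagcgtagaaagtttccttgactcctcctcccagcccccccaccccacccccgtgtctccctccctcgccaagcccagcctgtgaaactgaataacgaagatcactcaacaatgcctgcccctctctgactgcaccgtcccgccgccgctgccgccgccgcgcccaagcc
Sfrp2: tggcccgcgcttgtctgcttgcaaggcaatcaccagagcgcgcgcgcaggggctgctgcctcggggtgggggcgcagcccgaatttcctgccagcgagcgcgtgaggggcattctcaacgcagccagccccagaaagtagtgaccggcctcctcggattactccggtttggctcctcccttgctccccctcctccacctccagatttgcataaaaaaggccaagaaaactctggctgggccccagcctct
Fzd7: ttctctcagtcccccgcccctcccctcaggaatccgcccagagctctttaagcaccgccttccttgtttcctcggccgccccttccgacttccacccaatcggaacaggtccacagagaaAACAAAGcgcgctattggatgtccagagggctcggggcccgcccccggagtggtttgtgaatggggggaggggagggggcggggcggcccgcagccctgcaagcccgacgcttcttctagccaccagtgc
Lef1: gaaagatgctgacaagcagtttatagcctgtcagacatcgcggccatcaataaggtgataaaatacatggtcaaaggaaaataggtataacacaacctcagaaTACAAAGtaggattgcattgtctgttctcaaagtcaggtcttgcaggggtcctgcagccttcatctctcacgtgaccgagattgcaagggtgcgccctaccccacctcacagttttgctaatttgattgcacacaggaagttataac

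Of 55 further genes of the pathway, chosen for their textbook roles, 44 were tested, with 12 higher (27.3%, beside 34.6% of all features), 19 lower (43.2%, beside 24.2%) and 13 that did not pass. This split also moved with the scaling. It was 15 and 15 under median scaling, 14 and 18 under spike-in scaling, 9 and 21 under quantile normalization and 8 and 24 when scaled on the detected probes. The splits over all features under these scalings are given above. At least 2-fold changes were 2 upward (4.5%, beside 5.94%) and 6 downward (13.6%, beside 7.46%). Prickle1, a planar polarity protein, went from 2.67 and 2.79 to -0.04 and 0.13 and was 6.41-fold lower (log2 fold change -2.68 ± 0.091 SE, adjusted p = 0.000301). Gpc4, a cell-surface proteoglycan, fell 5.09-fold, Tle2, a corepressor of Tcf factors, 3.53-fold, and Daam2, a formin that binds Dishevelled, 3.37-fold. The second probes of Gpc4 and Tle2 also fell. Celsr3, an atypical cadherin of planar polarity, was not well above background on the deletion-mutant arrays and was tested through the wild-type group. It was at least 2.73-fold lower, and Bcl9l, a coactivator of beta-catenin, was 2.06-fold lower.

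Both rises of at least 2-fold were of genes often used as targets, a label given here and not part of how the further genes were listed. Cyclin D1, Ccnd1, which many growth signals induce, went from 3.63 and 3.71 to 6.36 and 6.32 and was 6.355-fold higher (2.67 ± 0.062, adjusted p = 0.000175). Cd44, the hyaluronan receptor, rose 2.54-fold, and its other 2 kept probes rose 2.53-fold and 2.07-fold. Sp5 and Tnfrsf19, also used as targets, were not well above background on any array. The carrier Wls (1.52-fold) and the acyltransferase Porcn (1.82-fold), which cells need to release Wnts, both fell, as did the Wnt receptor Ryk (1.47-fold). Among Tcf factors Tcf7l1 (1.99-fold) and Tcf7l2 (1.53-fold) fell while Lef1 rose. The kinases Gsk3a (1.49-fold higher) and Gsk3b (1.27-fold lower) of the destruction complex differed in direction, but the other 2 kept probes of Gsk3b did not pass, at -0.06 each (adjusted p = 0.439 and 0.459). Opposite directions were also seen for Dvl1 (1.61-fold higher) and Dvl3 (1.27-fold lower), which relay the signal from Frizzled.

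**Figure D4:**
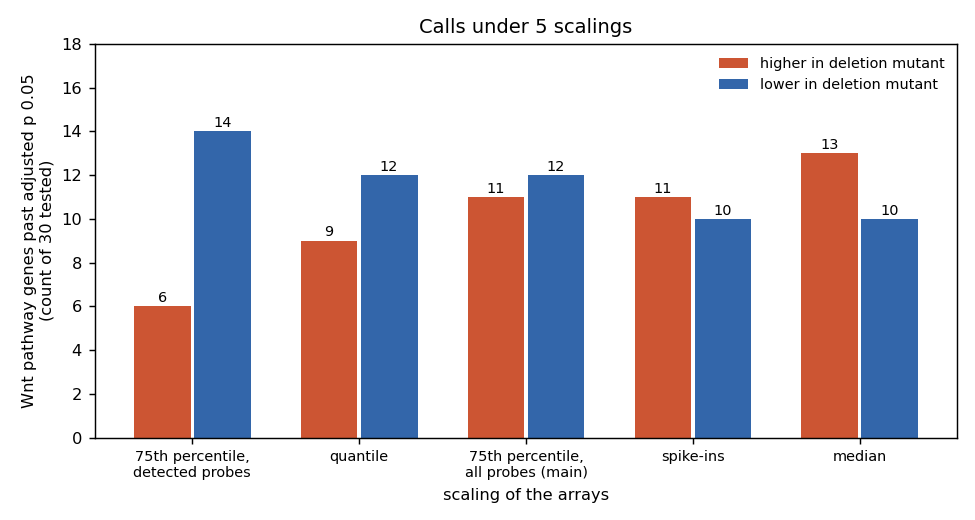
Number of the 30 tested Wnt pathway genes past an adjusted p of 0.05 (limma) in each direction under 5 scalings of the arrays. Genes higher in deletion-mutant cells number from 6 to 13 and genes lower in them from 10 to 14. Over all 18093 features the same scalings gave 4276 to 8696 higher and 3140 to 6727 lower.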

How the data were processed

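RNA of the 4 samples was labelled with Cy3 and hybridised to 1-colour Agilent arrays. Per the file headers these were read with Feature Extraction 10.10.1.1 (protocol GE1_1010_Sep10), and probe coordinates are on mm9. The deposited processed signal is an intensity, subtracted for background and detrended within each array, and the deposited files also hold flags of 0 or 1. The authors also deposited log2 values, which differ from the log2 of that signal by a fixed amount on each array (to within 0.01 for 100% of probes). Each array's median is 4.4367 in them, and their centring is not stated in the labels.

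Outlier and control spots were left out, log2 values of replicate spots were averaged per probe, and values were set relative to the 75th percentile of each array's non-control probes. Probes well above background in at least 0.5 of their spots on every array of 1 or both groups were kept (25162 of 55681). A gene was its brightest kept probe, giving 18093 features. Groups were compared with limma 3.58.1 in R 4.3.3 (2 residual and 2.18 prior degrees of freedom, median SE 0.0735), and the Benjamini-Hochberg adjustment ran over the whole set of features. The number of arrays limits the precision. The fit was tested on simulated data. By accession, 62 members matched a RefSeq symbol (GRCm38.p6), 2 of them under another name, and promoters were read from RefSeq tables. Figures were drawn with Python 3.11.15 and matplotlib 3.10.9.

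The members, the list of further genes and the alternatives were chosen with earlier results of these data known. Members changed at least 2-fold with groups that do not overlap, and Wnt5a, Sfrp2 and Lgr6, were given in full. Further genes were named when changed at least 2-fold, at most 12. Members with smaller changes were named by role, and other further genes were named after their values were seen. The alternatives were normexp (offset 50), quantile normalization, scaling on the median, on detected probes or on 4 E1A spike-in probes, the authors' log2 values, both background filters, a variance trend, averaged probes per gene, each probe as a feature, a block for the replicate number, and each array left out in turn. A slide block was not run, since there was 1 slide. One cell type marker is not reported here.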

Additional observations from a re-analysis of the deposited data

How the results depend on the processing

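The number of Wnt pathway genes higher in deletion-mutant cells, 11 in the main setting, was 6 when scaled on the detected probes and 6 with no background filter. Over all features 6260 were higher in the main setting, 4276 when scaled on the detected probes and 3741 of 34816 with no background filter. The count of further pathway genes that rose, 12, became 6 with no background filter. It was 22 with every probe as a feature, where 68 probes in place of 44 genes were tested, and 8202 of all 25162 probes rose. Leaving out 1 array gave 7 to 9 rises and 10 to 10 falls among the members, with 7 without wild-type replicate 1, and 9 to 10 rises and 15 to 18 falls among the further genes. Directions turned for 6 genes with small differences: under quantile normalization Ctnnb1 (-0.0058, log2) and Dkk3 (-0.1475), under the percentile of the detected probes Dkk3 (-0.1485) and Fzd6 (-0.0519), and with the mean of the probes Fzd7 (-0.23). Lrp5 turned to 0.1732 under median scaling, 0.0755 under spike-ins, 0.1741 with the authors' log2 values, and took values from -0.1232 to 0.1106 with 1 array left out (0.1106 and 0.1038 without wild-type replicate 1 and deletion-mutant replicate 1). Wnt1 turned to 0.1135 under median scaling, 0.0158 under spike-ins and 0.1143 with the authors' values. Median scaling raised the median log2 fold change over all features by 0.18, and scaling on the detected probes moved it by -0.19. The causes of these shifts were not tested.

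With the replicate number as a block, 9 members rose and 11 fell, beside 5872 and 4118 of all 18093 features. Axin1, Ctnnb1 and Wisp1 did not pass. The replicate numbers coincide with the slide row, but the labels do not pair the samples. The differences between replicates 1 and 2 correlated at 0.047 across features between the groups. Of 32 untested members, 30 had no probe well above background on any array. With no background filter 2 of the 32, Rnf43 and Rspo2, passed as lower by limma.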

Other observations

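Several untested Wnt pathway genes had both wild-type arrays above both deletion-mutant arrays although no array was well above background: Rspo2, Rnf43, Wnt5b and Wnt10a, and Ror1 and Lgr5 by 1 of their 2 probes. Rspo2, an R-spondin, read -4.05 and -4.03 in wild-type and -5.52 and -5.29 in deletion-mutant arrays (log2, relative to each array's 75th percentile), and the ubiquitin ligase Rnf43 read -3.95 and -4.10 and then -5.52 and -5.36. Both passed as lower with no background filter (limma adjusted p = 0.0162 and 0.0155). Dkk1 and Rspo1 had the opposite order, as did Nkd1 by 1 of its 2 probes. The wild-type mean of Dkk1 was -5.75 and its deletion-mutant mean -5.54. Some dim genes whose groups overlap had a similar gap, such as Sfrp4 and Wnt3 (-5.75 and then -5.58 for each), while others, such as Wnt4, had the lower mean with the deletion mutant. Whether the order of Dkk1 and Nkd1 is more than such a gap was not tested. With 2 arrays per group, either order of the groups can also arise by chance. How many of all untested features have either order was not counted, so the list does not set these genes apart. The genes were named after their values were seen, and no fold is given for signals at background.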
